A study of Mus musculus with 6 samples.

Results

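Cyclin G2 and its relatives among the cyclins, together with the inhibitors of cyclin-dependent kinases (CDKs) and the replication clamp gene Pcna, were examined in cultured mouse retinal pigment epithelium (RPE) after a meal of photoreceptor outer segments (POS). The set comprised 10 genes taken by symbol: Ccng2 and Ccng1, the D-type cyclins Ccnd1, Ccnd2 and Ccnd3, the inhibitors Cdkn1a, Cdkn1b, Cdkn1c and Cdkn2c, and Pcna. Rows for 9 of the 10 were found among 12556 measured genes, and Cdkn2c was not analysed here. Ccng2 was among the 12 genes past the threshold in the comparison of challenged with unchallenged cells, and the set was chosen with that known. Its values in that comparison are therefore a description of why it was chosen, and the p-values of the other members, picked with the same comparison known, are likewise given as descriptions.

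POS-challenged cultures were given mouse outer segments at roughly 10 for each RPE cell, which were rinsed off after 1.5 h, and unchallenged cultures, titled Veh in the labels, received none. Both were primary RPE of C57BL/6J pups, 10 to 12 days old at dissection, kept 5 to 6 days in culture on porous inserts (pore size 0.4 µm), with the cells of about 1 eye in a well. Each group had 3 libraries, described as biological replicates, and polyadenylated RNA was sequenced. The labels do not say whether replicates came from separate litters or days, so p-values measure the spread between these libraries only.

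Cyclins bind CDKs and switch them on. D-type cyclins act with Cdk4 and Cdk6 early in the cycle, and inhibitors of the Cip/Kip family (p21, p27 and p57, the products of Cdkn1a, Cdkn1b and Cdkn1c) bind cyclin and CDK complexes and restrain them. The G-type cyclins are atypical: cyclin G1 is a target of p53, and cyclin G2 is known for high levels in cells that leave the cycle, where FoxO factors can induce it. Mature RPE in the eye does not normally divide, whereas RPE placed in culture can re-enter the cycle.

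Reads summed over the measured genes ranged from 24869273 to 30420028 per library. Levels are given as normalized read counts, which are reads divided by a size factor for each library. Unchallenged replicates 1 and 3 stood apart in interferon-stimulated genes, whose list mean of 19 measured genes was 11.15 and 11.58 in log2 units there, against 6.47 in unchallenged replicate 2. The challenged libraries had 5.94, 6.90 and 8.99 for replicates 1, 2 and 3. On the first principal component (51.3% of the variance), unchallenged replicates 1 and 3 stood at 36.8 and 26.2. Unchallenged replicate 2, at -12.1, lay among the challenged libraries there, at -26.3, -17.7 and -6.88 for replicates 1, 2 and 3. Challenged replicate 3 stood apart as well, at -35.9 on the second principal component (25.9% of the variance) against 2.45 to 14.9 in the other libraries, and its 10 highest genes held 8.23% of its normalized counts against 10.7% to 10.99% elsewhere. Of the RPE markers listed, 16 of 17 were measured, among them Tyr, the tyrosinase gene, at a mean of 21849 normalized counts, and their summed level was 45637 to 69129 in challenged and 45112 to 60581 in unchallenged libraries. All 7 fibroblast markers were also present, led by Col1a1 at a mean of 38228, and their summed level was 57178 to 74809 in challenged and 64669 to 88156 in unchallenged libraries. In bulk libraries, fewer cells of a type and less RNA per cell cannot be told apart.

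The promoters of Ccng2, Cdkn1a and Pcna are printed because these were the 3 members whose challenged values all lay below the unchallenged ones. Each run is the 250 bases before the annotated start on the gene's own strand, 5′ to 3′, from RefSeq on GRCm38.p6, the assembly that mm10 denotes. The table held promoters for 7 of the 10 genes. For Ccng2 (chr5:93267323-93267572, plus strand) the capitals mark the forkhead core AAACA. For Cdkn1a (chr17:29090729-29090978, plus strand, the upstream one of its 2 annotated starts) they mark matches to the p53 decamer. For Pcna (chr2:132253181-132253430, minus strand) they mark the CCAAT box, here on the opposite strand.
Ccng2: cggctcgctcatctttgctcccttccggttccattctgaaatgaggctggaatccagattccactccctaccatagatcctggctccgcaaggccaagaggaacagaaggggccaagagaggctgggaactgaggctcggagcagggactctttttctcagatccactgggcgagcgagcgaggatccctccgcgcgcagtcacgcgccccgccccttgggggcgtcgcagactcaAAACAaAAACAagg
Cdkn1a: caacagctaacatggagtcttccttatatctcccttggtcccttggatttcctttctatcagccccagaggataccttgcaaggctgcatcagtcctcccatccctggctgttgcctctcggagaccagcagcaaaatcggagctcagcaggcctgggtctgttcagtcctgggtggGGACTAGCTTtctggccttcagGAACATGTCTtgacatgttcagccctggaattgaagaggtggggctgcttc
Pcna: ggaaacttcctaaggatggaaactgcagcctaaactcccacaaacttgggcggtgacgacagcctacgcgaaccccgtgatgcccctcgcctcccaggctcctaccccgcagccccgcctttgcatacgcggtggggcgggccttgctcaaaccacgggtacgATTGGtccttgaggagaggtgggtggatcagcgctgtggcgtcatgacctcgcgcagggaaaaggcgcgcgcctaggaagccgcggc

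The Ccng2 promoter held 2 forkhead cores, which lay 8 to 14 bases before the start, and no FoxO site GTAAACA. Forkhead cores were also present in the promoters of Cdkn1b, with 2, and of Ccnd3, whose 1 match, 243 bases before the first of its 2 starts, lay in a FoxO site. Read on both strands, the core AAACA was present in 46.4% of 32851 promoters of the same length and GTAAACA, which contains that core, in 3.17%. The upstream Cdkn1a promoter held 2 p53 decamers, 51 and 73 bases before its start, and the downstream one held none. The Ccng1 promoter held 1, at 185 bases. A p53 decamer occurred in 7.13% of all promoters. The CCAAT box had 1 match in Pcna, 3 in Ccng1, 2 in Cdkn1b and 1 at the other start of Ccnd3, and was held by 33.8% of all promoters. None of the 7 genes with a promoter in the table matched the E2F letters TTTNNCGC, which 4.28% of promoters held. These are matches of letters, and none of the data bear on binding at them.

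Cyclin G2 was lower after the meal. Ccng2 stood at 1259, 1163 and 1132 normalized counts in the POS-challenged libraries (replicates 1, 2 and 3), against 1873, 1752 and 1865 in unchallenged replicates 1, 2 and 3. Every challenged library lay below every unchallenged one, and the gap between the groups was wider than the spread within either. The means were 1185 ± 66.2 in challenged and 1830 ± 67.9 in unchallenged cells (SD, n = 3 each), so the challenged level was 64.7% of the unchallenged one. The log2 fold change, challenged over unchallenged on the log2(value + 1) scale, was -0.63 ± 0.07 (SE), with a 95% interval from -0.79 to -0.46. In limma its adjusted p over all genes was 0.0421, which placed it at rank 11 of 12556 by p, and the authors' deposited table gave a log2 fold change of -0.59 with an adjusted p of 6.47e-09.

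Of the 9 members, limma called 1 lower and 0 higher, where it called 0.0956% of all genes (0.0319% lower and 0.0637% higher). An unadjusted p under 0.05 was found for 3 members, all lower in challenged cells, and for 11.5% of all genes (6.58% lower and 4.87% higher). The authors' deposited table also called 1 member, lower, and it called 2.55% of its 12056 genes with an adjusted p (1.68% lower and 0.871% higher). Groups did not overlap in 3 members, all lower in challenged cells, against 20.0% of all genes (10.4% lower and 9.56% higher). The fold change was negative in 6 members and in 48.3% of all genes. Its median was -0.11 over the 9 members and 0.0069 over all genes, in log2 units. As the comparison chose the set, nothing is read from these shares.

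**Figure D1:**
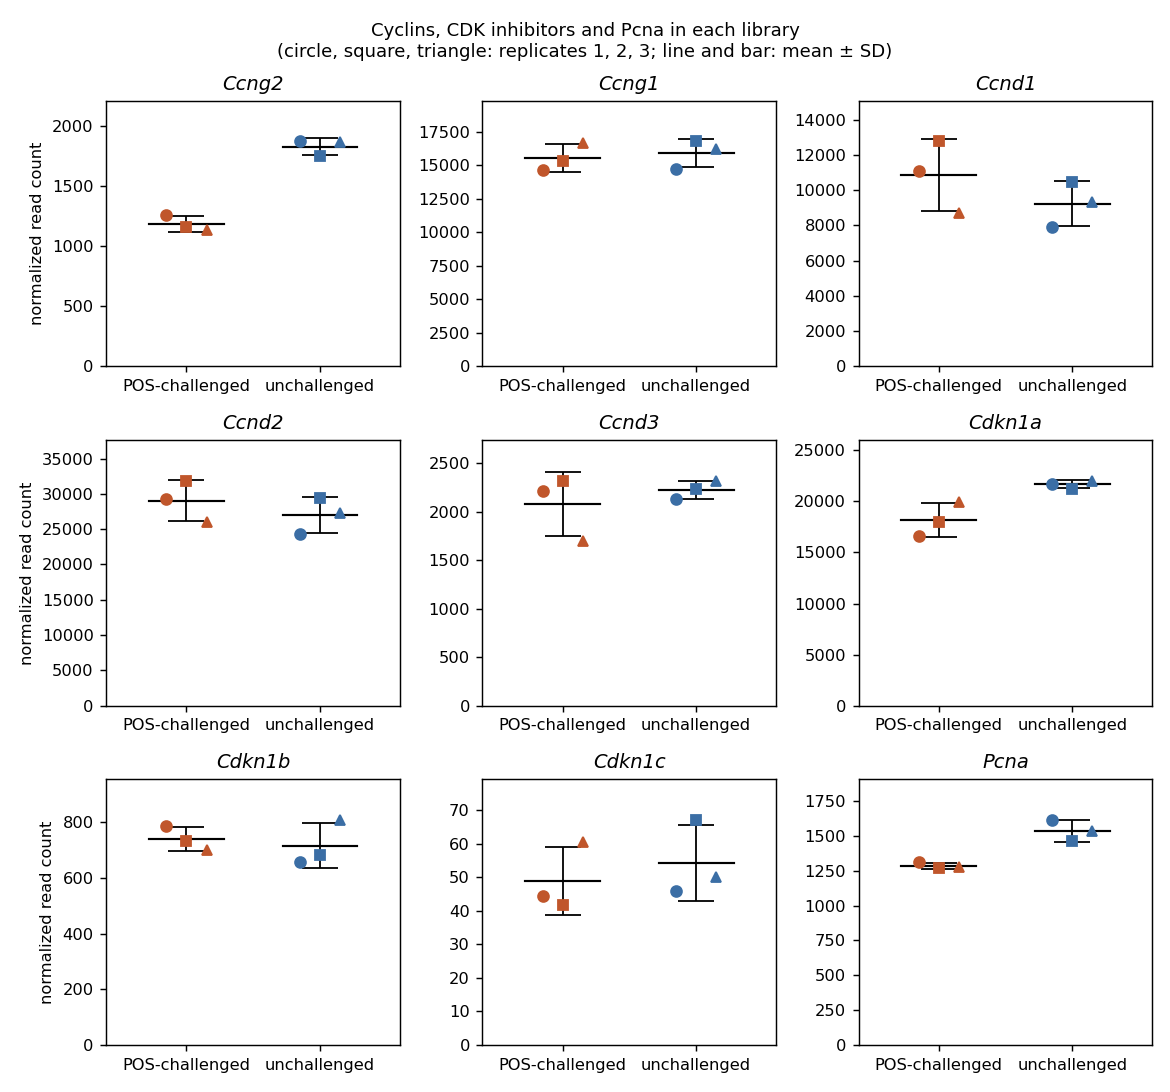
Normalized read count of each of the 9 measured members in every library, with POS-challenged libraries on the left and unchallenged ones on the right of each panel; points are replicates, lines the mean and bars the SD (n = 3). Ccng2, Cdkn1a and Pcna show no overlap between groups, with Ccng2 at 1132 to 1259 in challenged and 1752 to 1873 in unchallenged libraries.

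The size of the Ccng2 difference changed little with the libraries kept, and its call did change. Leaving out 1 library at a time, the log2 fold change ran from -0.67 to -0.60. The adjusted p was 0.0286 without unchallenged replicate 2, 0.0578 without POS-challenged replicate 3 and 0.170 to 0.351 without each of the others. Against unchallenged replicate 2 alone, the unchallenged library with low interferon genes, the log2 fold change was -0.57 and did not pass (adjusted p = 1.00, with 1 unchallenged library). Against the same library the log2 fold change was -0.23 for Cdkn1a and -0.18 for Pcna. Ccng2 itself had 1752 counts in unchallenged replicate 2, against 1873 and 1865 in unchallenged replicates 1 and 3.

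**Figure D2:**
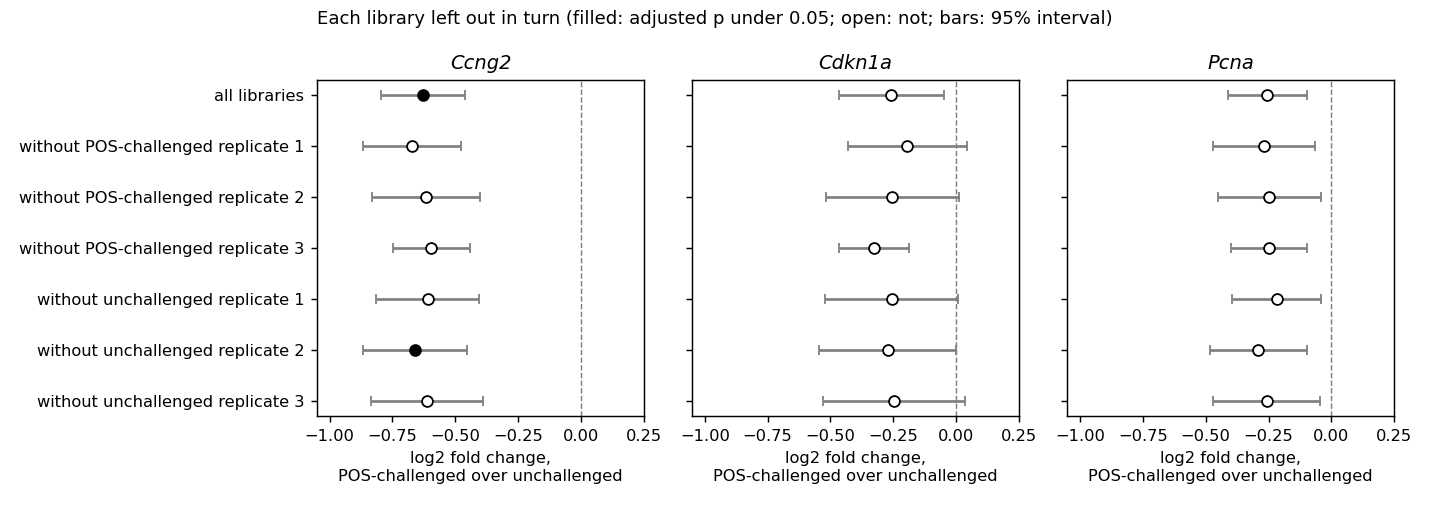
Log2 fold change (POS-challenged over unchallenged, horizontal axis) of Ccng2, Cdkn1a and Pcna with all libraries and with each library left out (rows); bars are 95% intervals, and filled points have an adjusted p under 0.05. Ccng2 stays between -0.67 and -0.60 when 1 library is left out, and is filled with all libraries and without unchallenged replicate 2.

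Photoreceptor RNA moved with the same groups. Of 18 photoreceptor markers listed, 2 were measured, the rod arrestin gene Sag and Cdhr1, and their summed level was 926 to 1538 in challenged and 109 to 153 in unchallenged libraries. The other 16 were not analysed here. RPE markers leaned higher in challenged cells, with 3 of 16 fold changes negative (48.3% of all genes) and a log2 median of 0.16. Mitf, Krt18 and Krt8 had an unadjusted p under 0.05 in limma, all higher, where 4.87% of all genes were. None passed after adjustment. The RPE list mean in log2 units overlapped between groups, at 10.24 to 10.77 in challenged and 10.02 to 10.53 in unchallenged libraries. Fibroblast markers gave no common direction: 3 of 7 fold changes were negative, with a log2 median of 0.0084. Pdgfra had 1689 ± 478 normalized counts in challenged and 861 ± 179 in unchallenged cells (limma adjusted p = 0.252; 0.00334 in the authors' deposited table), while Dcn had 471 ± 29.5 in challenged and 1085 ± 717 in unchallenged cells (limma adjusted p = 0.445). The part of photoreceptor RNA, RPE or fibroblasts in the Ccng2 difference was not tested.

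Cyclin G1, the closest relative of cyclin G2 in the set, overlapped between the groups. Ccng1 stood at 14675, 15307 and 16710 in challenged replicates 1, 2 and 3, against 14742, 16798 and 16197 in the unchallenged ones. Replicate 1 of each group was lowest. The log2 fold change was -0.03 ± 0.09 (SE), with a 95% interval from -0.24 to 0.17 and a limma adjusted p of 0.910, and its sign turned with quantile normalization (0.095) and without replicate 1 of the challenged or replicate 2 of the unchallenged libraries. Per kb of exon, Ccng2 stood at 5.52%, 4.89% and 4.36% of Ccng1 in challenged replicates 1, 2 and 3, against 8.18%, 6.71% and 7.41% in the unchallenged ones. Those shares were lower in every challenged library than in any unchallenged one, and no test is given because Ccng2 was chosen on this comparison.

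D-type cyclins overlapped between the groups. Ccnd1, the gene of cyclin D1, had 11071, 12767 and 8697 normalized counts in challenged replicates 1, 2 and 3, against 7912, 10471 and 9326 in the unchallenged ones. Challenged replicates 1 and 2 were the highest of the 6 libraries and unchallenged replicate 1 the lowest. The log2 fold change was 0.22 ± 0.16 (SE), with a 95% interval from -0.15 to 0.60 (limma adjusted p = 0.609). It depended on the libraries kept: with 1 left out it ran from 0.097, without challenged replicate 2, to 0.37, without challenged replicate 3, where the interval was 0.064 to 0.68 (adjusted p = 0.326). It was 0.12 without unchallenged replicate 1 and 0.033 without unchallenged replicates 1 and 3. With quantile normalization it was 0.32 ± 0.14 (SE; limma adjusted p = 0.450).

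Ccnd2, the gene of cyclin D2, had 29232, 31887 and 26020 normalized counts in challenged replicates 1, 2 and 3, against 24357, 29481 and 27253 in the unchallenged ones. The groups overlapped, with the highest value again in challenged replicate 2 and the lowest in unchallenged replicate 1. Its log2 fold change was 0.10 ± 0.11 (SE), with an interval from -0.16 to 0.37 (limma adjusted p = 0.746). It was 0.22 ± 0.08 (SE) with quantile normalization (limma adjusted p = 0.393) and -0.026 without unchallenged replicates 1 and 3.

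Ccnd3, the gene of cyclin D3, had 2209, 2322 and 1702 normalized counts in challenged replicates 1, 2 and 3, against 2128, 2236 and 2316 in the unchallenged ones. Challenged replicate 3 stood below the other 5 libraries, which lay close together. The log2 fold change was -0.11 ± 0.12 (SE; limma adjusted p = 0.739), and without challenged replicate 3 it was 0.026.

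Within the D-type cyclins, Ccnd2 made up the largest part of their summed level per kb of exon, at 53.2% to 57.5% in challenged and 55.8% to 57.4% in unchallenged libraries. Ccnd1 followed with 38.4% to 42.6% in challenged and 37.2% to 39.6% in unchallenged libraries. The smallest part was Ccnd3, with 4.04% to 4.41% in challenged and 4.54% to 5.38% in unchallenged libraries. Lengths were the union of exons over all annotated transcripts, at 4709 bases for Ccnd1, 9409 for Ccnd2 and 8775 for Ccnd3. The size of each share depends on that choice. Those shares of Ccnd3 did not overlap between the groups, while its normalized counts did. A share also depends on the other genes in the sum, whose log2 fold changes were 0.22 for Ccnd1 and 0.10 for Ccnd2.

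Among the Cip/Kip inhibitors, Cdkn1a was the one whose groups did not overlap. Cdkn1a, the gene of p21, had 16574, 17989 and 19915 normalized counts in challenged replicates 1, 2 and 3, against 21732, 21238 and 22032 in the unchallenged ones. All challenged values lay below the unchallenged ones, and the unchallenged ones were close together, with a coefficient of variation of 9.23% in challenged and 1.85% in unchallenged cells. The means were 18159 ± 1677 in challenged and 21667 ± 401 in unchallenged cells (SD, n = 3 each), a log2 fold change of -0.26 ± 0.09 (SE). This did not pass over all genes in limma (unadjusted p = 0.0218, adjusted p = 0.371) or in the authors' deposited table (adjusted p = 0.156). With quantile normalization the log2 fold change was -0.12 ± 0.12 (SE; limma adjusted p = 0.730). With 1 library left out it ran from -0.33, without challenged replicate 3, to -0.19, and its 95% interval took in 0 without challenged replicate 1 or 2 and without unchallenged replicate 1 or 3.

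Cdkn1b, the gene of p27, had 785, 733 and 698 normalized counts in challenged replicates 1, 2 and 3, against 655, 684 and 809 in the unchallenged ones. The groups overlapped, and both the lowest and the highest value were unchallenged. Its log2 fold change was 0.05 ± 0.10 (SE), with a 95% interval from -0.19 to 0.29 (limma adjusted p = 0.878).

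Cdkn1c, the gene of p57 and an imprinted gene, had the lowest counts of the set, with 44.4, 41.6 and 60.5 normalized counts in challenged replicates 1, 2 and 3, against 45.8, 67.1 and 49.9 in the unchallenged ones. The groups overlapped, and the coefficient of variation was 20.8% in each. Its interval was the widest of the set, from -0.68 to 0.39 around a log2 fold change of -0.15, so at this depth a difference such as that of Ccng2 was within it.

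Pcna codes for the sliding clamp that holds DNA polymerases on the template and is high in cells that replicate DNA. It had 1313, 1274 and 1276 normalized counts in challenged replicates 1, 2 and 3, against 1617, 1463 and 1533 in the unchallenged ones. The challenged libraries were nearly equal and all lay below the unchallenged ones. The means were 1288 ± 22.1 in challenged and 1538 ± 77.1 in unchallenged cells (SD, n = 3 each), and the log2 fold change was -0.25 ± 0.07 (SE). It did not pass over all genes in limma (unadjusted p = 0.00616, adjusted p = 0.283) or in the authors' deposited table (adjusted p = 0.0914). Leaving out 1 library, the log2 fold change ran from -0.29 to -0.22.

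**Figure D3:**
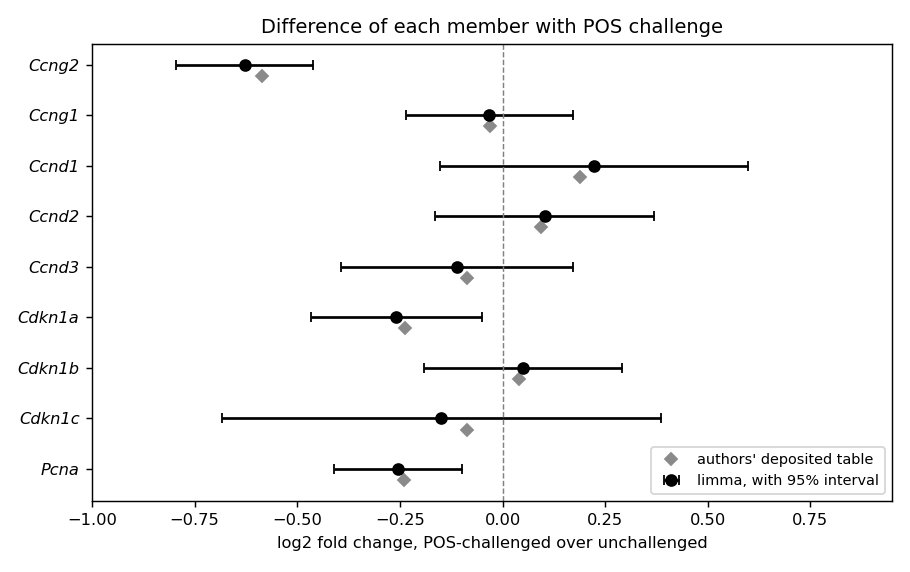
Log2 fold change of each member (rows), POS-challenged over unchallenged, from limma with its 95% interval (circles) and from the authors' deposited table (diamonds). The intervals of Ccng2, Cdkn1a and Pcna lie below 0 with all libraries (for Cdkn1a, quantile normalization gave -0.12 ± 0.12, SE), and only Ccng2 passed after adjustment over all genes, at -0.63 in limma and -0.59 in the authors' deposited table. Circles and diamonds come from different fits, so their sizes are not directly comparable.

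Levels of different genes can be set beside each other only per length, taken here as the union of annotated exons. That union takes in every annotated transcript, and which transcripts were present is not known. The order between genes therefore depends on this choice of length. On that scale, in normalized counts per kb, Cdkn1a was highest at 5111 ± 472 in challenged and 6098 ± 113 in unchallenged cells. Ccng1 followed at 4432 ± 297 in challenged and 4531 ± 301 in unchallenged cells. The ranges of these 2 genes overlapped in challenged libraries, where Cdkn1a at 4665 in replicate 1 lay below Ccng1 at 4758 in replicate 3, and were apart in unchallenged ones. Within each single library Cdkn1a was the higher.

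Ccnd2 stood at 3087 ± 312 per kb in challenged and 2873 ± 273 in unchallenged cells. Ccnd1 stood at 2303 ± 434 in challenged and 1961 ± 272 in unchallenged cells, and the ranges of these neighbours were apart within each group. A step below came Pcna, at 537 ± 9.22 in challenged and 641 ± 32.1 in unchallenged cells.

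Ccng2 and Ccnd3 were neighbours in this order, with exon unions of 5458 and 8775 bases. Their order could change if the transcripts present were shorter than these unions. In challenged cells Ccng2 at 207 to 231 per kb and Ccnd3 at 194 to 265 overlapped, while in unchallenged cells Ccng2 at 321 to 343 stood above Ccnd3 at 242 to 264. Cdkn1b lay below both, at 153 to 172 in challenged and 144 to 178 in unchallenged libraries. Cdkn1c was lowest, at 24.0 ± 4.98 in challenged and 26.6 ± 5.54 in unchallenged cells.

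**Figure D4:**
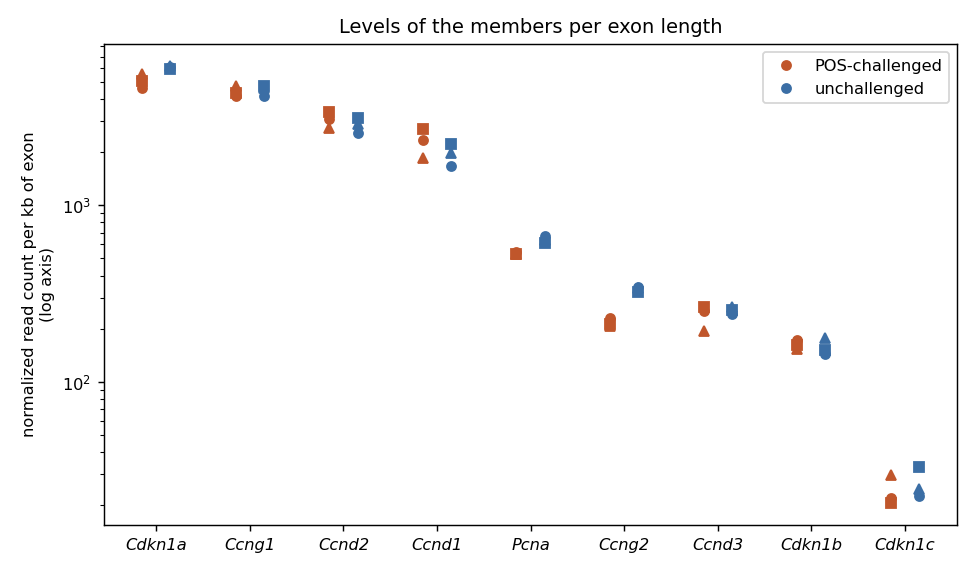
Normalized read count per kb of exon (log axis) of the 9 members in each library, ordered by their unchallenged mean, with POS-challenged points left of unchallenged ones and symbols for replicates 1 to 3 (circle, square, triangle). Levels run from 6098 for Cdkn1a to 26.6 for Cdkn1c in unchallenged cells, and Ccng2 lies within the range of Ccnd3 in challenged cells and above it in unchallenged cells. Lengths are unions of exons over all annotated transcripts, and the order between genes depends on that choice.

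Other genes of the cell cycle were read from the same fit in 8 lists by role, with 164 genes measured. None passed in limma (0 of 164), 12 had p under 0.05 before adjustment (11.5% of all genes did), and the calls in the authors' deposited table were 1 higher and 4 lower (2.55% of its genes were called). Each list's count of lower genes at an unadjusted p under 0.05 stands beside 6.58% of all genes, and each count of higher ones beside 4.87%. Over the 164 genes the median log2 fold change was 0.015. Groups did not overlap in 12 lower and 6 higher genes of the 164, against 20.0% of all genes (10.4% lower and 9.56% higher).

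Other cyclins and CDKs had a median of -0.0054 over 26 of 31 listed genes, with 0 limma calls and 1 gene at p under 0.05 before adjustment. That gene was Cdk6, a partner of the D-type cyclins, which had 232 ± 11.2 normalized counts in challenged and 312 ± 55.4 in unchallenged cells (log2 fold change -0.41, limma adjusted p = 0.383). Its unchallenged values were 367, 257 and 312 in replicates 1, 2 and 3, and its highest challenged value was 245. Cdk4, the other partner of the D-type cyclins, had 3855 ± 665 in challenged and 3857 ± 554 in unchallenged cells. Ccnb1, a mitotic cyclin gene, had 230 ± 38.0 in challenged and 192 ± 20.1 in unchallenged cells (adjusted p = 0.563). Ccni, an atypical cyclin gene with the highest counts of the list, had 5756 ± 204 in challenged and 6060 ± 265 in unchallenged cells (adjusted p = 0.682).

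Inhibitors outside the set, with the Rb and E2F families that act below the D-type cyclins, had a median of 0.019 over 19 of 19 listed genes, and 0 had an unadjusted p under 0.05. Cdkn2b, the gene of the inhibitor p15, had 2388 ± 478 normalized counts in challenged and 2262 ± 367 in unchallenged cells. Cdkn2a had 139 ± 17.8 in challenged and 176 ± 25.8 in unchallenged cells (limma adjusted p = 0.476). E2f1, which drives genes of DNA replication, had 519 ± 38.7 in challenged and 575 ± 20.9 in unchallenged cells, without overlap (adjusted p = 0.545).

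DNA replication genes had a median of 0.052 over 30 of 33 listed, and 0 had an unadjusted p under 0.05. Pcna lay at -0.25 on that scale. Mcm2, of the replicative helicase, had 500 ± 63.5 normalized counts in challenged and 424 ± 27.3 in unchallenged cells (limma adjusted p = 0.489). Rfc3, of the complex that loads the Pcna clamp, had 318 ± 43.0 in challenged and 265 ± 18.6 in unchallenged cells (adjusted p = 0.491). Rrm1, a subunit of ribonucleotide reductase, had 1790 ± 82.4 in challenged and 1732 ± 145 in unchallenged cells.

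Genes of mitosis had a median of 0.11 over 22 of 25 listed, with 3 negative fold changes, and 2 with an unadjusted p under 0.05. Both were positive: Aurkb, a kinase of chromosome segregation, had 160 ± 13.5 normalized counts in challenged and 110 ± 14.8 in unchallenged cells (limma adjusted p = 0.283). Cdc25b, a phosphatase that activates CDKs, had 215 ± 15.0 in challenged and 169 ± 15.0 in unchallenged cells (adjusted p = 0.371). Tpx2 was lower, without overlap, with 1096 ± 63.0 in challenged and 1233 ± 77.8 in unchallenged cells (limma adjusted p = 0.473). Mki67, the Ki-67 proliferation marker, had 1177 ± 115 in challenged and 1109 ± 275 in unchallenged cells, and Top2a, the gene of a topoisomerase, had 1221 ± 234 in challenged and 1142 ± 238 in unchallenged cells.

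The list of p53 and its targets, the family to which Cdkn1a and Ccng1 belong, had a median of 0.0088 over 23 of 25 listed genes. Of these, 0 passed over all genes in limma, and 4 lower ones had an unadjusted p under 0.05. Plk2, a kinase gene, had 10735 ± 1658 normalized counts in challenged and 16110 ± 3112 in unchallenged cells, and the authors' deposited table called it lower (adjusted p = 0.0326; 0.305 in limma). Its unchallenged values were 19622, 13697 and 15010 in replicates 1, 2 and 3, and its highest challenged value was 12151. Mdm2, whose product degrades p53, had 6203 ± 697 in challenged and 7178 ± 63.7 in unchallenged cells, without overlap (limma adjusted p = 0.422). Fas, a death receptor gene, had 122 ± 3.92 in challenged and 175 ± 24.7 in unchallenged cells (limma adjusted p = 0.284).

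FoxO factors and their targets had a median of 0.032 over 18 of 22 listed genes, with 0 limma calls and 3 genes at p under 0.05 before adjustment, all lower in challenged cells. Bcl6, a repressor gene, had 1162 ± 46.4 normalized counts in challenged and 1452 ± 71.5 in unchallenged cells (adjusted p = 0.0272 in the authors' deposited table and 0.240 in limma). Sod2, the mitochondrial superoxide dismutase gene, had 1861 ± 148 in challenged and 2618 ± 444 in unchallenged cells (0.0365 in the authors' deposited table and 0.283 in limma). Its unchallenged values were 3075, 2189 and 2589 in replicates 1, 2 and 3, and its highest challenged value was 1987. Sod2 is also induced by NF-kB. Foxo1 had 1204 ± 72.6 in challenged and 1125 ± 27.0 in unchallenged cells, and Insr, the insulin receptor gene, had 3266 ± 52.5 in challenged and 2953 ± 164 in unchallenged cells.

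Genes of the Myc, Mxd and Id families had a median of -0.10 over 11 of 13 listed. In limma 0 passed over all genes. Id2, an inhibitor of helix-loop-helix factors, had 2607 ± 398 normalized counts in challenged and 1798 ± 101 in unchallenged cells (log2 fold change 0.52), and the authors' deposited table called it higher (adjusted p = 0.00885; 0.240 in limma). Mxd1, an antagonist of Myc, had 435 ± 8.08 in challenged and 575 ± 60.7 in unchallenged cells and was called lower there (0.0469; 0.253 in limma). Myc itself had 2628, 3279 and 6972 in challenged replicates 1, 2 and 3, against 4363, 3612 and 3552 in the unchallenged ones, so that challenged replicate 3 was the highest of all and challenged replicate 1 the lowest.

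The machinery that degrades cyclins and CDK inhibitors had a median of -0.036 over 15 of 17 listed genes, and 0 had an unadjusted p under 0.05. Ambra1, which directs the degradation of D-type cyclins, had 1731 ± 341 normalized counts in challenged and 1465 ± 4.07 in unchallenged cells (limma adjusted p = 0.539). Ddb1, an adaptor of Cul4 ubiquitin ligases, had 28335 ± 804 in challenged and 30332 ± 1210 in unchallenged cells (adjusted p = 0.652).

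**Figure D5:**
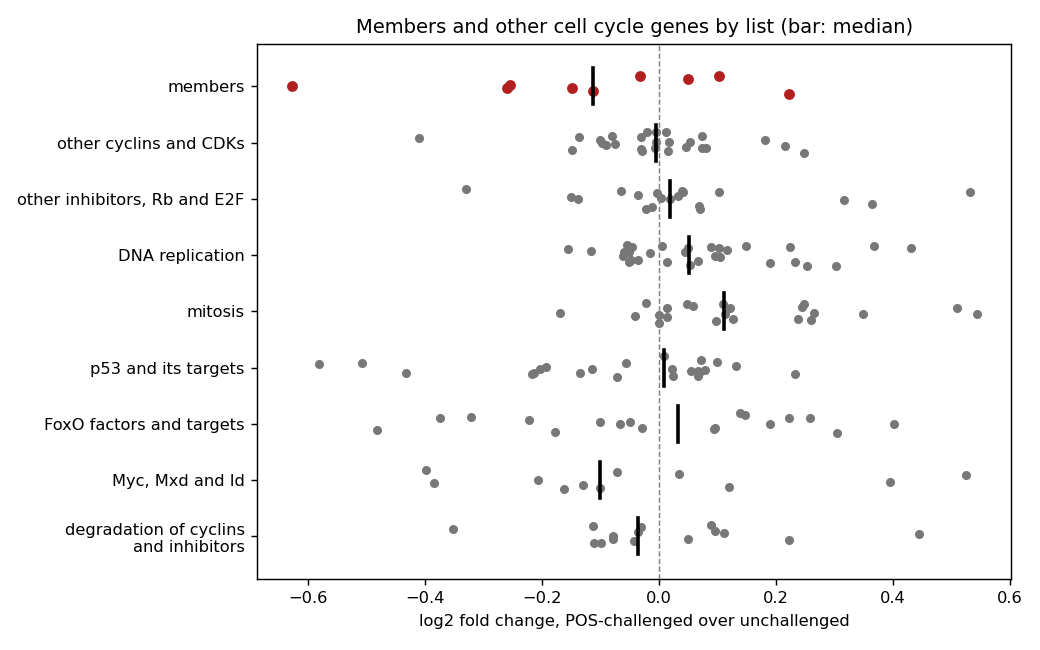
Log2 fold change (POS-challenged over unchallenged, horizontal axis) of the 9 measured members (top row) and of 164 other cell cycle genes by list, each point a gene and each bar a list median. Medians lie between -0.11 for the members and 0.11 for mitosis, and Ccng2 at -0.63 is the leftmost point.

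The 5 genes most like Ccng2 over the 6 libraries, by Pearson's r of log2(value + 1) among 10242 other genes with a mean of at least 100, were C330007P06Rik (r = 0.999), Jmjd6 (0.992), Pnrc1 (0.991), Gnai1 (0.986) and Hist1h2bc (0.985). The 6 points share the difference between groups, so genes without overlap come first in such a ranking, and r says nothing of size. Pnrc1, a nuclear receptor coactivator gene, had 1400 ± 53.3 normalized counts in challenged and 2168 ± 43.3 in unchallenged cells, a log2 fold change of -0.63 (limma adjusted p = 0.0336, past the threshold). Jmjd6 had 2128 ± 106 in challenged and 2847 ± 81.7 in unchallenged cells (limma adjusted p = 0.124). Gnai1, the gene of an inhibitory G protein subunit, had 1042 ± 44.2 in challenged and 1492 ± 116 in unchallenged cells (0.124). C330007P06Rik had 1361 ± 15.2 in challenged and 1475 ± 10.0 in unchallenged cells (0.494), and the histone gene Hist1h2bc had 1876 ± 63.2 in challenged and 2252 ± 48.9 in unchallenged cells (0.242).

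On GRCm38.p6, Ccng2 (Entrez Gene 12452) spans 93267573 to 93276231 on chromosome 5 and Ccng1 (12450) 40748552 to 40755309 on chromosome 11. Ccnd1 (12443) spans 144929931 to 144939831 and Cdkn1c (12577) 143458339 to 143461059 on chromosome 7. Ccnd2 (12444) spans 127125162 to 127152188 and Cdkn1b (12576) 134920401 to 134925525 on chromosome 6. Ccnd3 (12445) spans 47505051 to 47599689 and Cdkn1a (12575) 29090979 to 29100722 on chromosome 17, and Pcna (18538) 132249286 to 132253180 on chromosome 2. Each gene has 1 value, with no split by exon or transcript. Annotated genes on the opposite strand overlap Ccnd1, Ccnd2, Ccnd3 (Bysl), Cdkn1a and Cdkn1c, and processed pseudogenes are named for Pcna and Ccnd3. Whether counting used strand is not stated in the labels or headers, so the values of these first 5 genes are uncertain to that extent. How reads shared with the pseudogenes were placed is not stated either, while Ccng2, Ccng1 and Cdkn1b had no such overlap or pseudogene in GENCODE M21.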

How the data were processed

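Poly(A) RNA of 3 POS-challenged and 3 unchallenged primary RPE cultures was sequenced, per the labels' protocols, with 2 Genome Analyzer IIx lanes for each library. GSNAP, DESeq2 and the build mm10 are named in the submitters' processing notes. Not given in the sources used here are versions, annotation, counter and use of strand. The deposited library columns are a signal, read counts that the authors divided by a size factor per library: multiplied by 1 factor per library (0.901 to 1.103), every value was whole within 0.001. The deposited table also holds, per the file headers, a log2 fold change with its error, a score (the Wald statistic), and p-values of the authors before and after adjustment. It holds 12556 genes, each with at least 87 reads in all, and an adjusted p is missing for 500.

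Because the values are scaled, limma 3.58.1 (R 4.3.3) was fitted with a trend to log2(value + 1) over genes whose mean reached 10 (all of them), on group alone, with Benjamini-Hochberg adjustment over all genes at 0.05. Residual degrees of freedom were 4, to which limma's prior added 3.22. The script was tested on simulated data. No count model was run on the scaled values, and the authors' deposited table, made with DESeq2, serves as that alternative. Its log2 fold changes are not on the scale of limma's. Sag had 3.15 there and 5.16 in limma, and Cdhr1 had 1.42 there and 2.13 in limma. Exact permutation, whose smallest two-sided p here is 0.1, was not used. Exon lengths come from GENCODE M21 and promoters from RefSeq.

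The members, gene lists and tests were chosen with earlier results of these data known. Named were all members, per list the genes past the threshold or up to 4 with the smallest p and the 2 with the highest mean (not all are printed), and the 5 genes most like Ccng2. Cdk4, Mki67 and Foxo1 fall outside this rule and were chosen with their values in view. The marker genes follow the rule, and which of them are printed was chosen with their values in view.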

Additional observations from a re-analysis of the deposited data

How the results depend on the processing

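Ccng2 kept its sign and its call with quantile normalization, pseudocounts of 0.1 and 5, a minimum mean of 100 and in the authors' deposited table; taking away the filter on low values, which removed no gene, left the fit as it was. Its log2 fold change was -0.63 with the replicate block (adjusted p = 0.224) and -0.57 without unchallenged replicates 1 and 3 (adjusted p = 1.00), below the call in both, and with 1 library left out ran from -0.67 to -0.60, so members called lower ranged from 0 to 1. Members called lower numbered 0 with the replicate block and 0 without unchallenged replicates 1 and 3.

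Over all genes, limma called 8 higher and 4 lower, the replicate block 1 and 0 (1182 at an unadjusted p under 0.05), the fit without unchallenged replicates 1 and 3, which leaves 1 unchallenged library assumed to vary like the others, 0 and 0 (403 unadjusted), against 105 and 203 in the authors' deposited table. With 1 library left out the counts ran from 1 to 12 higher and from 0 to 108 lower, with 108 when unchallenged replicate 2 was left out. Of the other cell cycle genes, limma called 0 higher and 0 lower, against 1 and 4 in the authors' deposited table. Fits without 1 library called 0 to 1 higher, the 1 being Id2 without POS-challenged replicate 3.

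Signs turned in members near 0. Ccng1 reached 0.095 with quantile normalization, and with 1 library left out ran from -0.086 to 0.0095 (positive without POS-challenged replicate 1 or unchallenged replicate 2, at 0.0083). Ccnd2 was -0.026 without unchallenged replicates 1 and 3. With 1 library left out, Ccnd3 ran from -0.20 to 0.026 (positive without POS-challenged replicate 3), Cdkn1b from -0.011 to 0.14 (negative without unchallenged replicate 1) and Cdkn1c from -0.31 to 0.011 (positive without unchallenged replicate 2). Cdkn1a, uncalled throughout, was -0.12 with quantile normalization, against -0.26. With the same normalization Ccnd1 was 0.32, against 0.22, and Ccnd2 was 0.22, against 0.10. The cause was not tested.

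Deviations of same-numbered libraries from their group means correlated at -0.351, 0.172 and 0.173 over genes, and challenged replicate 1 correlated best with unchallenged replicate 2 (0.392). Such deviations cancel out within a group by construction. They cannot decide whether same-numbered libraries shared a litter or day, which the labels do not say. The edgeR and DESeq2 alternatives were not run. Cdkn1c, at a mean of 51.6 normalized counts, is the member that depth limits most, and with a minimum mean of 100 it gave no value.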
